A study of Mus musculus with 22 samples.

Results

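Bulk RNA sequencing counts of 12 whole pancreatic tumors were ranked by 5 transcripts that fibroblasts make in abundance, and the tumors were chosen by those values: the 6 tumors with the most of them (stroma-rich) were set against the 6 with the least (stroma-poor). The rank was the mean of log2(CPM + 1) over Col1a1, Col1a2, Col3a1, Dcn and Lum, where CPM is a gene's count scaled by the total count of its tumor. The 12 tumors are all tumors of a series of 22 libraries, whose other 10 are cancer cell lines grown from such tumors. Because the same libraries gave the rank and the comparison, the differences between both groups are given as description, no p of a single gene is given for them, and the 5 ranking genes are shown only as the values that chose the tumors.

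By the labels, the stroma-rich group held 5 tumors without microRNA-21 (miR21 KO) and 1 WT tumor, and the stroma-poor group held 3 KO tumors and 3 WT tumors. All animals are labelled Bl6, were untreated and were symptomatic when the tumor was taken, and their titles carry the model name KPC. The labels name recombined K-Ras and p53 alleles in the lines, and do not say which promoter drove recombination or the animals' age. The tumors were snap-frozen whole, so cancer cells, stroma and any pancreas left in the piece were read together. The lines (5 KO and 5 WT) had been passaged at least 8 times to lose fibroblasts and were used at passage 10 to 14, and by title 5 animals are the source of a tumor as well as a line.

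Total counts were 24547650 to 30048873 in stroma-rich tumors, 27234512 to 30106745 in stroma-poor tumors and 24796473 to 31118113 in lines. Xist was above 100 CPM in 1 stroma-rich tumor and in 2 stroma-poor tumors. Mir21a, the deleted gene (mm10 chr11:86584067-86584158), had 0 counts in every tumor and line, KO and WT alike, so it gives no check of the genotype labels in these messenger RNA libraries. The labels name no batch among the tumors.

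Pancreatic cancer is known for a dense stroma in which fibroblasts lay down collagen fibers, and small leucine-rich proteoglycans such as decorin and lumican bind those fibers and set their width and spacing. Fibroblasts there take several states: contractile myofibroblasts next to cancer cells, inflammatory fibroblasts that secrete cytokines and complement, and cells of the vessel adventitia and organ capsule that carry Pi16, Dpp4 and Dpt. Hedgehog ligands from the cancer cells act on these fibroblasts, and TGF-beta drives their matrix output. In bulk samples, fewer cells of a type and less RNA per cell cannot be told apart.

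The score ran from 9.43 to 10.72 in stroma-rich tumors (median 9.79) and from 7.46 to 9.35 in stroma-poor tumors (median 8.93). In falling order it was 10.72 in KO tumor 8, 10.52 in KO tumor 4, 9.86 in KO tumor 5, 9.71 in KO tumor 1, 9.56 in KO tumor 7 and 9.43 in WT tumor 2. It then was 9.35 in KO tumor 3, 9.24 in KO tumor 6, 9.14 in WT tumor 3, 8.73 in WT tumor 4, 8.30 in WT tumor 1 and 7.46 in KO tumor 2. The border fell between WT tumor 2 and KO tumor 3, which lie closer to each other than any other neighbours in the rank, so the groups are cut from a gradient.

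The 5 genes did not rank the tumors alike. Dcn, decorin, had 288 to 3512 CPM in stroma-rich tumors (median 646) and 93.2 to 292 CPM in stroma-poor tumors (median 151). Lum, lumican, had 77.3 to 303 CPM in stroma-rich tumors (median 160) and 7.67 to 67.8 CPM in stroma-poor tumors (median 42.1), with no overlap. Col1a1, the first chain of type I collagen, had 1686 to 4418 CPM in stroma-rich tumors (median 2080) and 689 to 3377 CPM in stroma-poor tumors (median 1761), with much overlap. Col1a2, the second chain, had 1399 to 3392 CPM in stroma-rich tumors (median 1621) and 429 to 1827 CPM in stroma-poor tumors (median 1118). Col3a1, of type III collagen, had 1546 to 4033 CPM in stroma-rich tumors (median 2054) and 702 to 2434 CPM in stroma-poor tumors (median 1541). At the border, WT tumor 2 had 288 CPM of Dcn and 79.6 CPM of Lum, against 273 CPM of Dcn and 67.8 CPM of Lum in KO tumor 3. The order depended on the gene, since WT tumor 3 was second of the 12 for Col1a1 and eleventh for Lum at 28.9 CPM, while KO tumor 4 was ninth for Col1a1 and first for Dcn at 3512 CPM. Leaving Dcn out of the score moved WT tumor 3 into the stroma-rich group in place of KO tumor 7, and none of the other 6 ways of scoring (without each other gene, TMM-scaled, or with 0.1 in place of 1) changed a group. In the lines Dcn and Lum had 0 counts throughout, and Col1a1 reached at most 7.70 CPM.

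**Figure D1:**
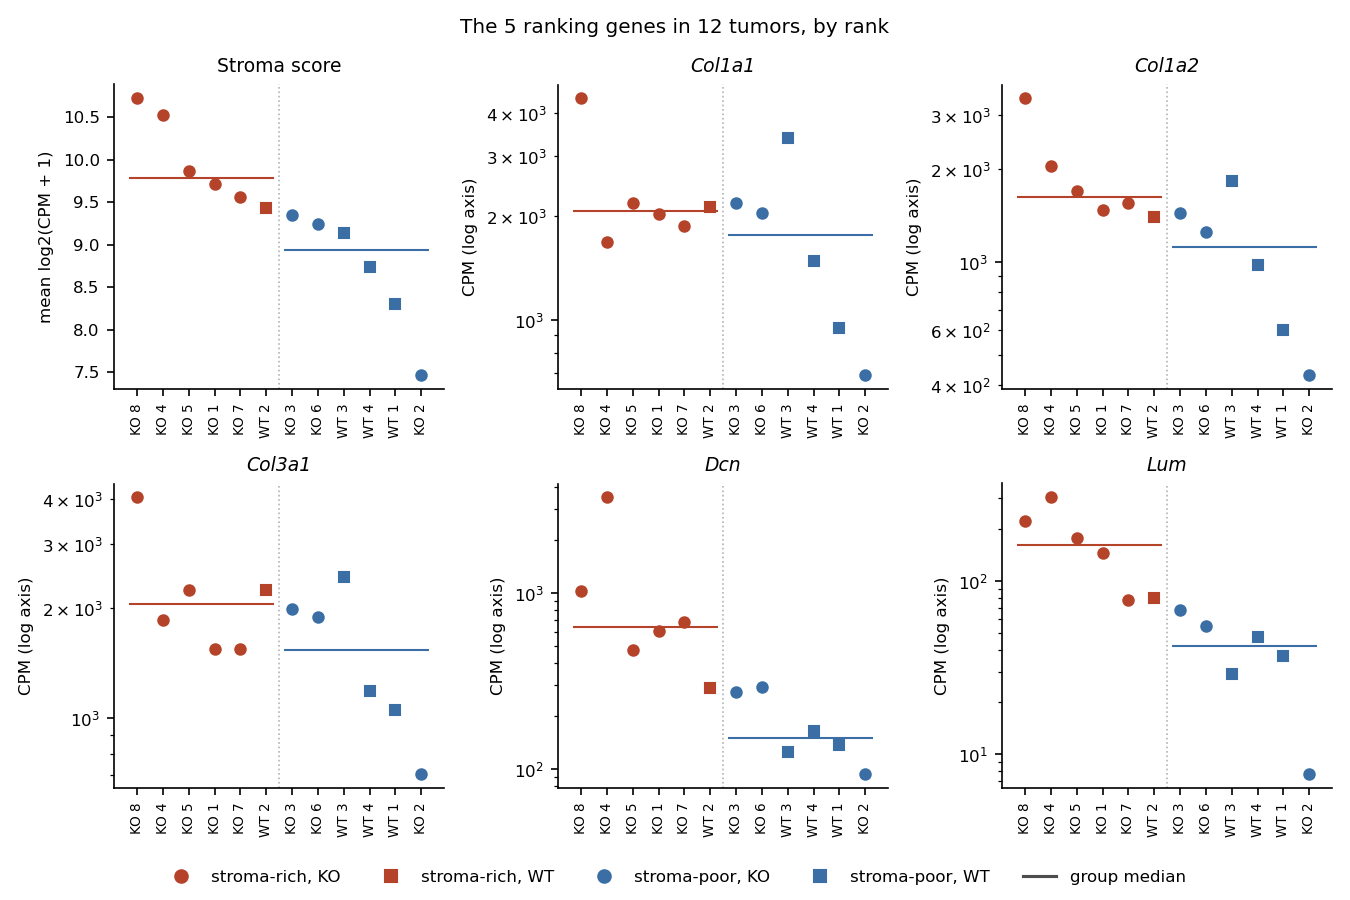
Stroma score (mean log2(CPM + 1)) and CPM of the 5 genes that made it (log axis) in each of the 12 tumors, in rank order, with the 6 stroma-rich tumors left of the dotted line; circles are KO, squares WT, and lines are group medians. Lum separates the groups (77.3 CPM at the lowest against 67.8 CPM at the highest), and Col1a1 does not, with WT tumor 3 at 3377 CPM.

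Genotype was not used to rank, so it can be tested on the score. The score averaged 9.55 ± 1.00 in KO tumors (SD, n = 8) and 8.90 ± 0.49 in WT tumors (SD, n = 4). The difference of 0.65 was within the spread between tumors (exact permutation test over 495 relabellings, two-sided, p = 0.248). The difference stayed above 0 leaving out any 1 tumor (0.45 to 0.95), but its p depended on 1 library. Without KO tumor 2, the lowest of all, the difference was 0.95 with an exact permutation p of 0.0242.

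Genes were then compared in 1 model (edgeR quasi-likelihood) with stroma group and genotype as terms. All log2 fold changes below are stroma-rich over stroma-poor at equal genotype, with their standard error, and gene levels are CPM scaled by TMM factors (a correction for library composition). Of 17183 genes tested, 0 (0.0%) had an adjusted p under 0.05 by edgeR, 1411 higher and 1196 lower had an unadjusted p under 0.05, limma-voom called 0 and DESeq2 called 686. In 112 genes (0.652%) all 6 stroma-rich tumors lay above all 6 stroma-poor tumors, and in 110 (0.64%) all 6 lay below. With the score as a number in place of the groups, 978 genes (5.69%) were higher and 242 (1.41%) lower as the score went up. Of the 112 genes, 57 were among the 978, which is 50.9% of the first set and 5.83% of the second. Of the 110 genes, 13 were among the 242 (11.8% and 5.37%). These counts come from the libraries that made the score, so they are background and no support for a difference between the tumors. They are used again only to look up the same genes in the cell lines, which the rank did not use.

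The 2 tumors at the top of the rank, KO tumors 4 and 8, weighed most on the gene counts. Without both, 9 genes in place of 1220 passed in the fit on the score. Without KO tumor 8 alone 300 passed, without KO tumor 4 alone 608, without KO tumor 2 715, without KO tumor 3 798 and without WT tumor 2 736. With the level of acinar genes as a further term 12 passed, and with a score of Col1a1, Col1a2 and Col3a1 alone 43. List medians are therefore given with and without KO tumors 4 and 8, an alternative chosen after seeing the data.

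The rest of the matrix did not move as a block. Among 18 other collagens 14 had a fold change above 0, and the median log2 fold change was 0.15 (0.11 without KO tumors 4 and 8), against -0.02 over all genes tested. Groups without overlap were found in 0 of the 18, near the share over all genes (0.652% above and 0.64% below), so that 0 tells nothing particular to collagens. Col14a1, a fibril-associated collagen, had 63.6 to 340 CPM in stroma-rich tumors (median 98.4) and 16.7 to 113 CPM in stroma-poor tumors (median 37.3), a log2 fold change of 1.67 ± 0.70. Col8a2, a short-chain collagen, had 8.99 to 55.6 CPM in stroma-rich tumors (median 17.3) and 2.07 to 15.9 CPM in stroma-poor tumors (median 8.11), or 1.19 ± 0.53 on the log2 scale. Both overlapped between groups and were highest in KO tumors 4 and 8, without which they were at 0.92 and 0.68.

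Col5a3, a chain of the type V collagen that nucleates fibrils, leaned the other way. It had 15.7 to 56.2 CPM in stroma-rich tumors (median 25.5) and 20.3 to 146 CPM in stroma-poor tumors (median 50.0), a log2 fold change of -1.16 ± 0.44. The high values were 146 CPM in WT tumor 3 and 121 CPM in KO tumor 6, and without KO tumor 6 the fold change was -0.58. Enzymes that modify and cross-link collagen had a median of -0.21 over 20 genes (-0.17 without KO tumors 4 and 8), with 6 of 20 above 0, and 0.0043 without KO tumor 6, so this median has no firm sign. P4ha1, which hydroxylates collagen prolines, had 48.2 to 105 CPM in stroma-rich tumors (median 59.0) and 79.5 to 173 CPM in stroma-poor tumors (median 108), or -0.72 ± 0.21 on the log2 scale and -0.42 without KO tumor 6. Adamts2, which cuts the amino-terminal propeptide from procollagen, had 51.3 to 274 CPM in stroma-rich tumors (median 155) and 22.6 to 130 CPM in stroma-poor tumors (median 48.0), with a log2 fold change of 0.85 ± 0.42 (0.55 without KO tumors 4 and 8, 0.50 without KO tumor 2). Its relative Adamts14 stood at 87.8 CPM in KO tumor 6 and at 5.99 CPM or less in the other 11 tumors, and its fold change without KO tumor 6 was 0.01.

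Glycoproteins and proteoglycans had a median log2 fold change of 0.61 over 26 genes, with 18 above 0, and 0.30 without KO tumors 4 and 8. The relatives of decorin and lumican were the clearest. Fmod, fibromodulin, had 13.0 to 196 CPM in stroma-rich tumors (median 48.5) and 2.07 to 28.3 CPM in stroma-poor tumors (median 9.05), a log2 fold change of 2.07 ± 0.63. Prelp, another member of the leucine-rich family, had 34.5 to 187 CPM in stroma-rich tumors (median 83.1) and 5.87 to 75.8 CPM in stroma-poor tumors (median 20.8), or 1.34 ± 0.44. In both genes KO tumors 4 and 8 were the 2 highest, and KO tumor 3 was the highest of the stroma-poor tumors. Without those top 2 tumors Fmod was at 1.29 and Prelp at 0.90. Ltbp2, which binds elastic microfibrils, had 118 to 226 CPM in stroma-rich tumors (median 143) and 44.6 to 124 CPM in stroma-poor tumors (median 86.7), or 0.82 ± 0.26, and without KO tumors 4 and 8 it was 0.74.

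Some members of the list had their highest value in a stroma-poor tumor, KO tumor 6 or WT tumor 3. Vcan, the large proteoglycan versican, had 57.0 to 92.4 CPM in stroma-rich tumors (median 76.3) and 46.2 to 346 CPM in stroma-poor tumors (median 117), a log2 fold change of -0.98 ± 0.40 that was -0.32 without KO tumor 6. Fn1, fibronectin, had 2072 to 3653 CPM in stroma-rich tumors (median 2570) and 2063 to 5831 CPM in stroma-poor tumors (median 4296), or -0.53 ± 0.28, and -0.26 without KO tumor 6. Tnc, tenascin C, had 96.0 to 465.5 CPM in stroma-rich tumors (median 218) and 37.0 to 1100 CPM in stroma-poor tumors (median 379), or -0.64 ± 0.56, and -0.18 without KO tumor 6. Thbs2, thrombospondin 2, was at 881 CPM in KO tumor 6, and its fold change of -1.22 ± 0.77 became 0.51 without that tumor. These 4 genes were chosen after their values were seen, all 4 overlap between groups, and KO tumor 2, the lowest of all in score, was the lowest of the 12 in each. Other matricellular members lay above 0, Postn (periostin) at 0.82 ± 0.38 and Thbs1 (thrombospondin 1) at 0.22 ± 0.30. Ltbp1, which holds latent TGF-beta in the matrix, had 58.2 to 110 CPM in stroma-rich tumors (median 62.6) and 41.5 to 471 CPM in stroma-poor tumors (median 140), or -1.52 ± 0.51 (-0.96 without KO tumor 6).

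Receptors and regulators of fibroblasts had a median of 0.45 over 16 genes with 12 above 0, and 0.07 without KO tumors 4 and 8. Ddr2, a receptor for fibrillar collagen, had 34.8 to 134 CPM in stroma-rich tumors (median 47.9) and 13.4 to 40.3 CPM in stroma-poor tumors (median 22.0), or 1.19 ± 0.37, and 0.76 without KO tumors 4 and 8. Pdgfra, the PDGF receptor that marks most fibroblasts, had 39.5 to 191 CPM in stroma-rich tumors (median 64.6) and 16.6 to 80.8 CPM in stroma-poor tumors (median 33.1), or 0.76 ± 0.37, and 0.32 without KO tumors 4 and 8. Its level was highest in KO tumor 4, and KO tumors 3 and 6 were the stroma-poor tumors within the stroma-rich range. Dpt, dermatopontin, had 16.3 to 155 CPM in stroma-rich tumors (median 46.5) and 0.696 to 23.3 CPM in stroma-poor tumors (median 7.49), or 3.26 ± 0.94, and 2.41 without KO tumors 4 and 8. Dpt had 0 counts in all 10 lines. The members below 0 were Twist2 at -1.46, Twist1 at -0.72, Prrx1 at -0.415 and Tbx18 at -0.25. Without KO tumors 4 and 8 they were at -1.77, -0.44, -0.44 and -0.13 in that order. Leaving out any 1 tumor, Twist2 stayed at -0.98 or lower and Twist1 at -0.42 or lower. Prrx1 and Tbx18 have no firm sign, at 0.32 and 0.34 without KO tumor 6.

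Genes of adventitial and inflammatory fibroblasts did not share a direction, though those named first here were all above 0. Dpp4, a cell-surface peptidase, had 9.01 to 42.1 CPM in stroma-rich tumors (median 13.0) and 1.24 to 5.99 CPM in stroma-poor tumors (median 3.36), a log2 fold change of 2.31 ± 0.53 with no overlap. Pi16, a peptidase inhibitor of adventitial fibroblasts, had 21.9 to 156 CPM in stroma-rich tumors (median 96.2) and 4.33 to 65.1 CPM in stroma-poor tumors (median 12.3), or 1.51 ± 0.54. C3, the central complement protein, had 876 to 4126 CPM in stroma-rich tumors (median 1225) and 155 to 742 CPM in stroma-poor tumors (median 544), or 1.53 ± 0.42 with no overlap. Clec3b, tetranectin, had 4.83 to 97.8 CPM in stroma-rich tumors (median 9.42) and 0.541 to 6.14 CPM in stroma-poor tumors (median 1.36), or 4.19 ± 1.29. Without KO tumors 4 and 8 these 4 fold changes were 1.71, 1.22, 0.99 and 2.43 in that order, so each kept its direction.

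Of the 15 genes of that list 11 were above 0 and the median was 0.23 (0.15 without KO tumors 4 and 8, and -0.02 to 0.55 leaving out 1 tumor at a time). A pair of complement genes outside the lists, chosen after their values were seen, had groups that barely overlapped or did not overlap. C4b, complement component 4, had 198 to 1060 CPM in stroma-rich tumors (median 329) and 54.1 to 206 CPM in stroma-poor tumors (median 124), and C1ra, the C1r protease, had 27.5 to 134 CPM in stroma-rich tumors (median 37.3) and 7.60 to 24.8 CPM in stroma-poor tumors (median 14.3). Cytokines of the list went both ways. Cxcl12, which attracts lymphocytes, had a log2 fold change of 1.18 ± 0.52 (0.71 without KO tumors 4 and 8), Ccl2 0.26 ± 0.38, Ccl7 0.23 ± 0.52 and Il6 0.04 ± 0.35. Lif, a cytokine of the interleukin 6 family, had 9.67 to 34.2 CPM in stroma-rich tumors (median 24.5) and 30.5 to 70.0 CPM in stroma-poor tumors (median 41.4), or -0.76 ± 0.31. Has2, which makes hyaluronan, had 1.93 to 15.2 CPM in stroma-rich tumors (median 7.60) and 5.60 to 65.8 CPM in stroma-poor tumors (median 28.8), or -1.20 ± 0.52. These 6 genes too were chosen after their values were seen.

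**Figure D2:**
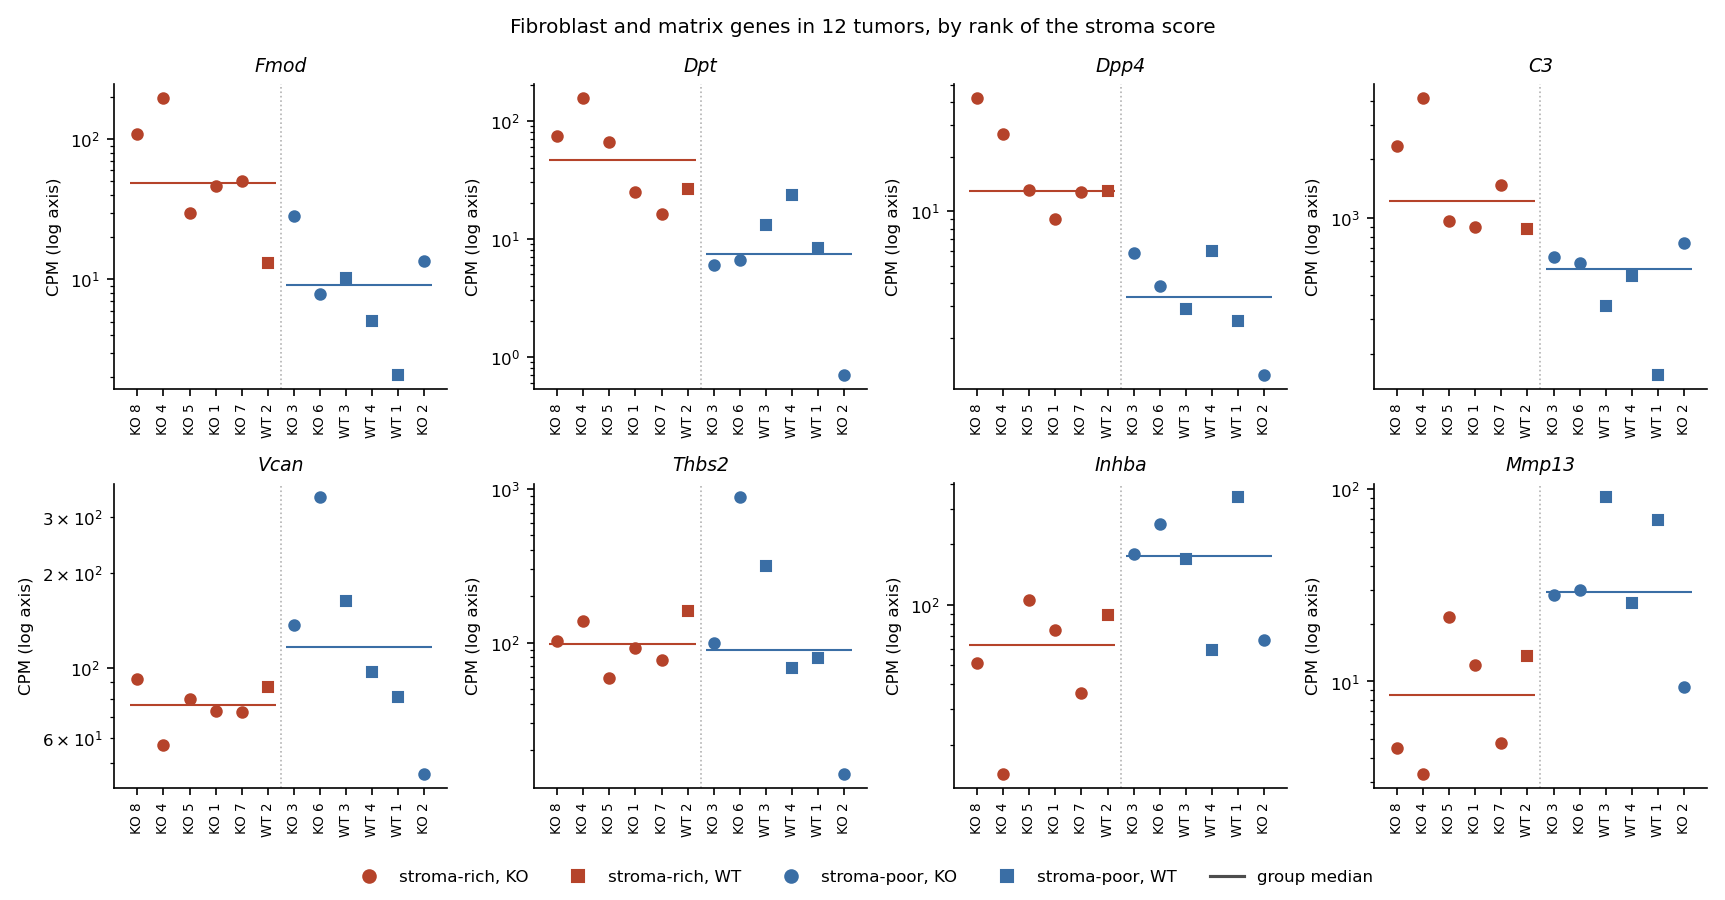
CPM (log axis, TMM-scaled) of 8 fibroblast and matrix genes in the 12 tumors in rank order, stroma-rich tumors left of the dotted line; circles are KO, squares WT, lines are group medians. Dpp4 and C3 do not overlap between groups, while Vcan, Thbs2, Inhba and Mmp13 reach their highest values in stroma-poor tumors (346, 881, 343 and 90.7 CPM).

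Contractile genes were high in single tumors. The median over 10 genes of myofibroblasts was 0.87 with 8 above 0 (0.94 without KO tumors 4 and 8, and 0.32 to 1.30 leaving out 1 tumor at a time). Tagln, transgelin, had 78.0 to 344 CPM in stroma-rich tumors (median 134) and 40.2 to 164 CPM in stroma-poor tumors (median 97.8), or 0.67 ± 0.52, and 0.34 without KO tumor 5. Actg2, the actin of visceral smooth muscle, was at 370 CPM in KO tumor 5 and at 140 CPM in the stroma-poor WT tumor 4, against 3.87 to 55.0 CPM in the other 10, and its fold change of 2.32 ± 1.79 was 0.48 without KO tumor 5. Myh11, smooth muscle myosin, had 9.94 to 565 CPM in stroma-rich tumors (median 75.6) and 3.34 to 204 CPM in stroma-poor tumors (median 6.60), again highest in KO tumor 5 and, among stroma-poor tumors, in WT tumor 4. Its log2 fold change of 3.33 ± 1.98 was 2.03 without KO tumor 5. Over 8 genes of pericytes and smooth muscle the median was 0.14, and Rgs5, which marks pericytes, was highest in KO tumor 6 at 713 CPM, against 45.2 to 201 CPM in the other 11 tumors.

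Among signals to fibroblasts, Hedgehog genes had a median of 0.41 over 13 genes, 11 above 0, and 0.58 without KO tumors 4 and 8. Boc, a co-receptor, had 6.19 to 40.9 CPM in stroma-rich tumors (median 11.6) and 2.20 to 8.01 CPM in stroma-poor tumors (median 4.40), a log2 fold change of 1.34 ± 0.49, and 0.80 without KO tumors 4 and 8. Gli1, a transcription factor that is itself a target of the pathway, had 3.78 to 27.3 CPM in stroma-rich tumors (median 10.2) and 0.889 to 8.54 CPM in stroma-poor tumors (median 2.88), or 1.21 ± 0.47, and 0.84 without KO tumors 4 and 8. Gli3, which can act as a repressor, went the other way at -0.98 ± 0.43, but KO tumor 6 alone had 41.6 CPM and without it the value was -0.18. Igf1, a growth factor that fibroblasts and macrophages release, had 50.7 to 139 CPM in stroma-rich tumors (median 84.9) and 19.96 to 57.1 CPM in stroma-poor tumors (median 30.4), or 1.10 ± 0.24. Only KO tumor 3 at 57.1 CPM overlapped with WT tumor 2 at 50.7 CPM.

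TGF-beta genes had a median of -0.04 over 14 genes with 5 above 0. Tgfb1, the main ligand, had 71.8 to 124 CPM in stroma-rich tumors (median 89.6) and 97.0 to 267 CPM in stroma-poor tumors (median 159), or -0.55 ± 0.19. Inhba, the activin A subunit, had 14.2 to 105 CPM in stroma-rich tumors (median 62.6) and 59.3 to 343 CPM in stroma-poor tumors (median 175), or -1.43 ± 0.54. Smad7, an inhibitor that the pathway induces, had 30.98 to 62.2 CPM in stroma-rich tumors (median 53.5) and 63.7 to 116 CPM in stroma-poor tumors (median 91.6), or -0.76 ± 0.20. Smad7 was the only member of the 14 whose groups did not overlap, against 110 of 17183 genes (0.64%) in that direction.

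Proteases of the matrix divided likewise, with a median of 0.25 over 16 genes and 10 above 0. Mmp23, a membrane-bound metalloprotease, had 33.0 to 91.0 CPM in stroma-rich tumors (median 62.0) and 9.43 to 34.2 CPM in stroma-poor tumors (median 22.9), or 1.34 ± 0.36, the same without KO tumors 4 and 8 (1.34). Adamts5, which cleaves aggrecan and versican, had 19.02 to 69.6 CPM in stroma-rich tumors (median 35.0) and 3.90 to 22.6 CPM in stroma-poor tumors (median 17.7), or 1.35 ± 0.51, and 0.90 without KO tumors 4 and 8. The collagenase gene Mmp13 and the gelatinase gene Mmp9, chosen after their values were seen, had their highest values in stroma-poor tumors. Mmp13 had 3.29 to 21.64 CPM in stroma-rich tumors (median 8.497) and 9.35 to 90.7 CPM in stroma-poor tumors (median 29.03), and Mmp9 had 13.3 to 37.0 CPM in stroma-rich tumors (median 27.0) and 12.0 to 173 CPM in stroma-poor tumors (median 72.6).

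Vessel genes leaned towards the stroma-rich tumors, with 1 clear exception. The median over 14 endothelial genes was 0.77 with 13 above 0, and 0.44 without KO tumors 4 and 8. Pecam1, an adhesion molecule of all endothelium, had 53.3 to 161 CPM in stroma-rich tumors (median 86.6) and 37.9 to 74.5 CPM in stroma-poor tumors (median 46.1), or 0.93 ± 0.30, and 0.56 without KO tumors 4 and 8. Kdr, the main VEGF receptor, had 26.9 to 84.6 CPM in stroma-rich tumors (median 40.0) and 15.9 to 33.5 CPM in stroma-poor tumors (median 23.9), or 0.92 ± 0.31, and 0.57 without KO tumors 4 and 8. Flt1, the VEGF receptor that also occurs as a soluble trap, had 34.0 to 82.6 CPM in stroma-rich tumors (median 61.6) and 71.8 to 199 CPM in stroma-poor tumors (median 177), or -1.05 ± 0.30, and -0.68 without KO tumor 6. Flt1 reached 128 CPM in the lines and Pecam1 0.508 CPM, so Flt1 transcripts, unlike those of Pecam1, were also made by the cancer cells in culture. Lyve1 and Ccl21a, found in lymphatic vessels among other places, were named after their values were seen, and no lymphatic list was scored. Groups without overlap in their direction were found in 112 of 17183 genes (0.652%). Lyve1, a hyaluronan receptor of lymphatic vessels and some macrophages, had 44.8 to 320 CPM in stroma-rich tumors (median 74.9) and 12.2 to 44.6 CPM in stroma-poor tumors (median 23.5). Ccl21a, the chemokine that draws lymphocytes to lymphatics and lymph nodes, had 19.1 to 129 CPM in stroma-rich tumors (median 36.5) and 0.0773 to 9.56 CPM in stroma-poor tumors (median 4.12), and neither gene overlapped between groups. Ccl21a has near-identical gene copies, so its reads may be shared among them.

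All 13 macrophage genes had a fold change above 0, with a median of 0.70 that was 0.32 without KO tumors 4 and 8. C1qb, a chain of complement C1q that tissue macrophages make, had 142 to 345 CPM in stroma-rich tumors (median 181) and 79.2 to 208 CPM in stroma-poor tumors (median 137), or 0.70 ± 0.32. Without the top 2 tumors C1qb was at 0.29. Neutrophil genes had a median of 0.58 over 8 genes (0.17 without KO tumors 4 and 8). Genes of the antigen-presenting fibroblast state had a median of 1.28 over 6 genes (0.60 without KO tumors 4 and 8). They are the class II genes Cd74, H2-Aa, H2-Ab1 and H2-Eb1, which also mark antigen-presenting cells, with Slpi and Saa3. Saa3 was at 0.10, and at -0.325 without KO tumors 4 and 8. Cd74, the class II invariant chain, had 101 to 1913 CPM in stroma-rich tumors (median 356) and 98.0 to 488 CPM in stroma-poor tumors (median 159), with KO tumor 8 at the top and a fold change of 1.28 ± 0.72 that was 0.48 without it.

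Lymphocyte genes were high in some tumors only. The 12 genes of T and NK cells summed to 4.45 to 240 CPM in stroma-rich tumors (median 28.9) and 1.58 to 9.44 CPM in stroma-poor tumors (median 5.01). The low-count filter kept 6 of the 12, which were near the counting floor in stroma-poor tumors and passed through the stroma-rich tumors where they were high, so their median of 4.21 is no support for a difference. The 8 genes of B and plasma cells summed to a median of 738 CPM (highest 2110) in stroma-rich tumors and 87.4 CPM (highest 277) in stroma-poor tumors, with overlap, and their median of 4.96 has the same limit. Ms4a1, the B cell protein CD20, was at 106 CPM in KO tumor 8, 58.0 in WT tumor 2, 13.4 in KO tumor 7 and 6.58 in KO tumor 4, but at 1.34 in KO tumor 5 and 0.839 in KO tumor 1. The stroma-poor tumors had 0.0359 to 1.61 CPM of it. Cd3e, of the T cell receptor complex, had 0.511 to 26.9 CPM in stroma-rich tumors (median 3.02) and 0.0359 to 0.773 CPM in stroma-poor tumors (median 0.321), highest in the same KO tumor 8 and WT tumor 2. Genes of lymphoid follicles and of their vessels had the same top tumors: Cr2, of B cells and follicular dendritic cells, was at 98.2 CPM in KO tumor 8 and 53.3 CPM in WT tumor 2, against 0.425 CPM or less in all 6 stroma-poor tumors. Glycam1, which marks the high endothelial venules of lymph nodes, was at 63.7 CPM in KO tumor 8 and 29.7 CPM in WT tumor 2, against 0.422 CPM or less in stroma-poor tumors. Cr2 and Glycam1 were chosen after their values were seen. Antibody segment genes summed to 102 to 7096 CPM in stroma-rich tumors and 26.8 to 3981 CPM in stroma-poor tumors, with overlap and with WT tumor 1 the highest of the stroma-poor group. Reads of such segments can match several copies, so single segments are not given.

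Genes of normal acinar and islet cells were detected in both groups. The 18 acinar genes, which encode digestive enzymes and their regulators, summed to 66.7 to 3040 CPM in stroma-rich tumors (median 445) and 5.24 to 556 CPM in stroma-poor tumors (median 53.4). Their median log2 fold change was 1.81 with all 17 tested genes above 0, and 0.12 without KO tumors 4 and 8. Ctrb1, chymotrypsinogen B, had 23.0 to 1038 CPM in stroma-rich tumors (median 205) and 0.177 to 228 CPM in stroma-poor tumors (median 28.5). KO tumors 4 and 8 were the highest in acinar genes and in score alike, and the part of acinar tissue in the fibroblast results was not tested beyond the fit with an acinar term. With that term the median of glycoproteins and proteoglycans was 0.31, of fibroblast receptors 0.16 and of glycolysis genes -0.44. Nr5a2, an acinar transcription factor, had 2.45 to 18.0 CPM in stroma-rich tumors (median 7.23) and 0.614 to 5.38 CPM in stroma-poor tumors (median 1.37), or 1.5 ± 0.47, and 1.17 without KO tumors 4 and 8.

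Islet genes summed to 17.0 to 437 CPM in stroma-rich tumors and 0.176 to 143 CPM in stroma-poor tumors. Ins2, an insulin gene, had 1.60 to 108 CPM in stroma-rich tumors (median 9.29) and 0 to 24.98 CPM in stroma-poor tumors, of which KO tumor 3 had 24.98 CPM and the rest 0.611 CPM or less. A count of 0 in the smallest library allows up to 0.122 CPM (3 counts, counting error only). Mesothelial genes, of the lining of the organ surface, had a median of 1.35 over 9 genes with 8 above 0 (1.03 without KO tumors 4 and 8). Their summed level overlapped, at 355 to 2390 CPM in stroma-rich tumors (median 908) and 398 to 1220 CPM in stroma-poor tumors (median 932). Gpm6a, a membrane glycoprotein, had 3.92 to 29.01 CPM in stroma-rich tumors (median 10.5) and 0.567 to 6.34 CPM in stroma-poor tumors (median 2.10). By contrast, the log2 fold change of Msln was 0.0012 and that of Bnc1 -1.26. Adipocyte transcripts were high in 3 stroma-rich and 2 stroma-poor tumors. Adipoq, adiponectin, was at 20.5 CPM in KO tumor 8, 13.4 in KO tumor 4, 10.1 in WT tumor 2, 10.1 in WT tumor 3 and 5.64 in WT tumor 4, and at 0.455 CPM or less in the other 7. Without KO tumors 4 and 8 the adipocyte median of 4.02, over the 6 of 8 genes that passed the filter, became 0.44. Skeletal muscle genes summed to 3.66 to 14.0 CPM in stroma-rich tumors and 1.54 to 1330 CPM in stroma-poor tumors, the highest in WT tumor 3. Mast cell genes were low throughout, yet Mcpt4, a mast cell protease, did not overlap, with 1.93 to 5.98 CPM in stroma-rich tumors (median 4.17) and 0.502 to 1.55 CPM in stroma-poor tumors (median 1.33). No list of these cell types had a marker at 0 in all tumors of either group, and what each cell type adds to the stroma contrast was not tested.

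**Figure D3:**
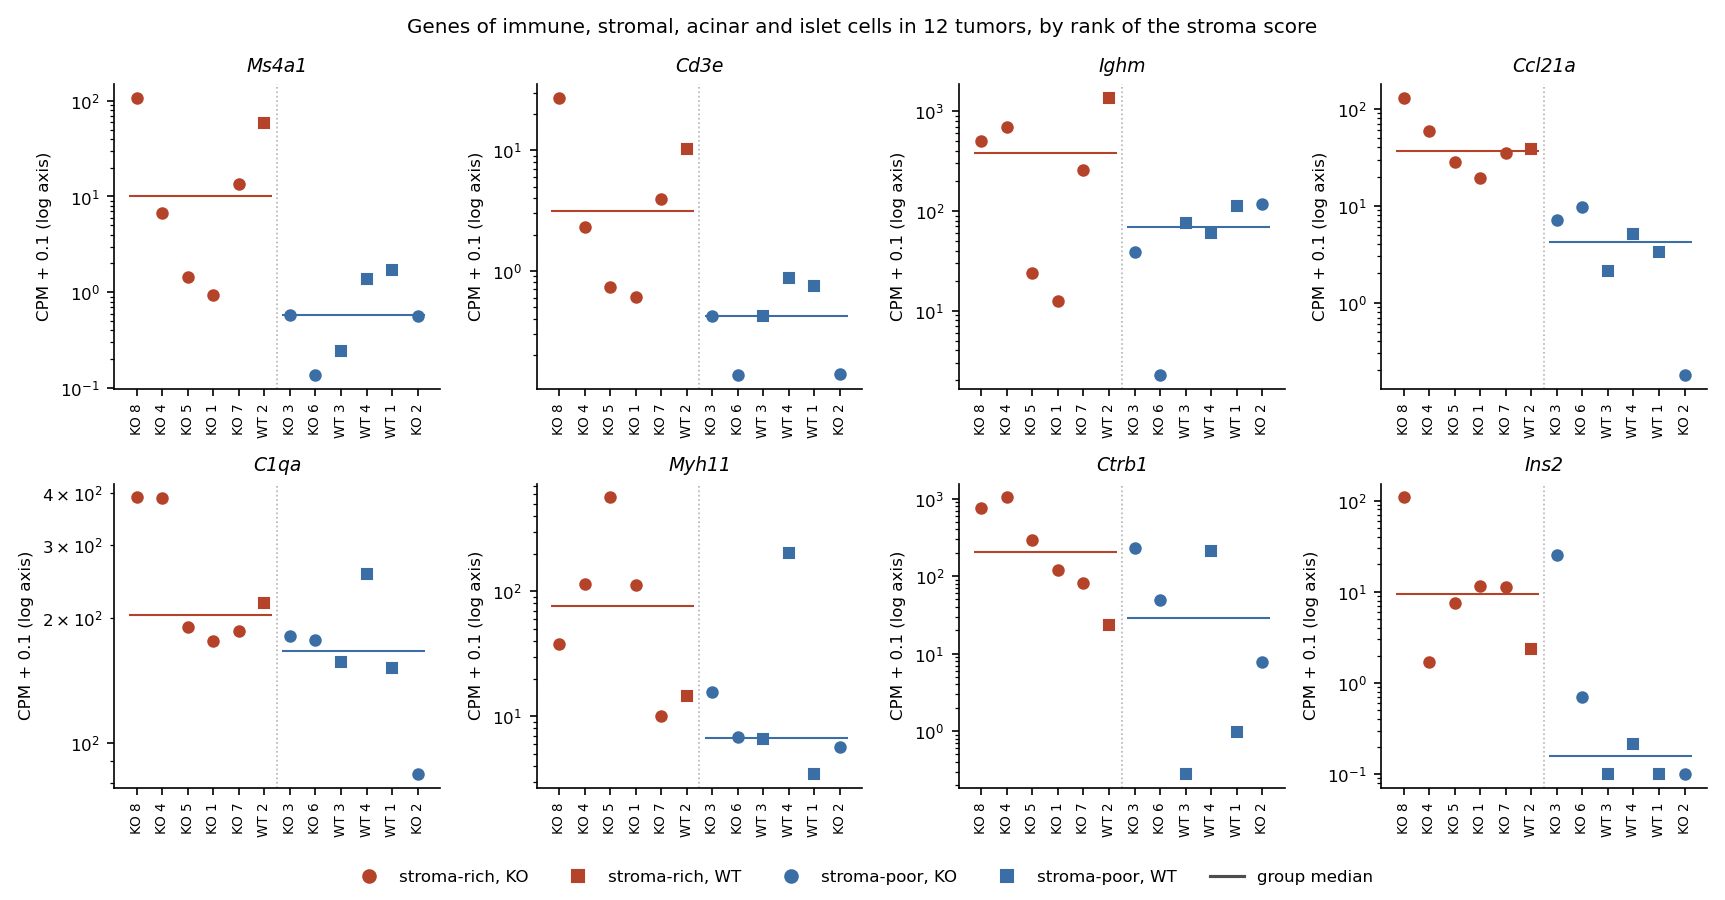
CPM + 0.1 (log axis, TMM-scaled) of B cell (Ms4a1, Ighm), T cell (Cd3e), lymphatic (Ccl21a), macrophage (C1qa), smooth muscle (Myh11), acinar (Ctrb1) and islet (Ins2) genes in the 12 tumors in rank order, stroma-rich tumors left of the dotted line; circles are KO, squares WT, lines are group medians. Ccl21a alone does not overlap between groups (19.1 CPM at the lowest against 9.56 CPM at the highest), and Ms4a1 and Cd3e are highest in KO tumor 8 and WT tumor 2.

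Among the lists of cancer cell genes, that of the ductal epithelium showed no common direction. Ductal epithelial genes had a median of 0.20 over 15 genes with 8 above 0, and they summed to 5570 to 10200 CPM in stroma-rich tumors (median 8710) and 4910 to 15800 CPM in stroma-poor tumors (median 10700). Cdh1, E-cadherin, had 580 to 1209 CPM in stroma-rich tumors (median 1007) and 522 to 1318 CPM in stroma-poor tumors (median 1032). KO tumors 2 and 6, both stroma-poor, had the lowest mean of the list. Esrp1, an epithelial splicing factor, had 83.5 to 178 CPM in stroma-rich tumors (median 104) and 36.8 to 128 CPM in stroma-poor tumors (median 69.2), or 0.76 ± 0.33. The median of the list lay between -0.02 and 0.38 leaving out 1 tumor at a time.

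Basal and squamous genes leaned down, with a median of -0.49 over the 9 of 11 genes that passed the filter and 1 above 0. Krt6a, a keratin of stressed squamous epithelium with near-identical copies, was at 0.693 CPM or less in stroma-rich tumors and reached 44.9 CPM in WT tumor 4, 27.1 in KO tumor 6 and 11.1 in WT tumor 1. Next are 4 genes outside the lists that the lines also express. They were chosen after their values were seen, so their lack of overlap is no support for a difference. Acsbg1, an acyl-CoA synthetase, had 16.9 to 49.3 CPM in stroma-rich tumors (median 36.6) and 58.4 to 238 CPM in stroma-poor tumors (median 180), or -2.23 ± 0.38. Lgr6, a receptor for R-spondins, had 2.20 to 11.7 CPM in stroma-rich tumors (median 6.25) and 12.2 to 123 CPM in stroma-poor tumors (median 85.2), or -3.05 ± 0.61. Phgdh, the entry enzyme of serine synthesis, had 23.9 to 45.1 CPM in stroma-rich tumors (median 34.3) and 48.0 to 156 CPM in stroma-poor tumors (median 85.8), or -1.19 ± 0.24. Jag1, a Notch ligand, had 47.0 to 85.4 CPM in stroma-rich tumors (median 77.2) and 90.8 to 532 CPM in stroma-poor tumors (median 189), or -1.21 ± 0.33. None of these 4 overlapped between groups, which 110 of 17183 genes (0.64%) shared in that direction. Without KO tumors 4 and 8 they were at -2.06, -2.76, -1.05 and -1.17. Without KO tumor 6 Lgr6 was at -1.74.

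All 22 genes of DNA replication and mitosis had a fold change below 0, with a median of -0.49 (-0.37 without KO tumors 4 and 8), against 8285 of 17183 genes above 0 among all tested. Their summed level overlapped, at 565 to 1520 CPM in stroma-rich tumors (median 959) and 935 to 1810 CPM in stroma-poor tumors (median 1400). In the fit on the score 0 of the 22 passed as lower, against 242 of 17183 genes (1.41%). Ccnb1, cyclin B1, had 7.58 to 21.3 CPM in stroma-rich tumors (median 14.8) and 22.1 to 47.7 CPM in stroma-poor tumors (median 26.4), or -0.89 ± 0.26. It was the only one of the 22 without overlap, which 110 of 17183 genes (0.64%) had in that direction. Cdk1, its kinase, had 23.6 to 50.8 CPM in stroma-rich tumors (median 31.7) and 46.5 to 75.6 CPM in stroma-poor tumors (median 54.4), or -0.70 ± 0.18. WT tumor 2 was the stroma-rich tumor with the most of either, and KO tumor 4 the one with the least.

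Glycolysis and hypoxia genes formed the list furthest below 0. Of 18 genes 17 were below 0 and 5 had groups without overlap, against 110 (0.64%) of all 17183 genes tested with all 6 below. The median of the 18 was -0.68 (-0.50 without KO tumors 4 and 8, and -0.76 to -0.57 leaving out 1 tumor at a time). Their summed level was 2900 to 5200 CPM in stroma-rich tumors (median 4910) and 5410 to 7730 CPM in stroma-poor tumors (median 6850), with no overlap. The lines had at least 6190 CPM.

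The 5 genes without overlap encode steps from the middle to the end of glycolysis. Pfkl, a phosphofructokinase, had 90.6 to 170 CPM in stroma-rich tumors (median 140) and 172 to 273 CPM in stroma-poor tumors (median 235), or -0.71 ± 0.18. Eno1, an enolase, had 180 to 332 CPM in stroma-rich tumors (median 277) and 372 to 489 CPM in stroma-poor tumors (median 451), or -0.69 ± 0.18. Pkm, pyruvate kinase, had 525.8 to 1060 CPM in stroma-rich tumors (median 753) and 1064 to 1681 CPM in stroma-poor tumors (median 1346), or -0.77 ± 0.20. In all 3 the 2 lowest tumors were KO tumors 4 and 8. Ldha, lactate dehydrogenase A, had 354 to 718 CPM in stroma-rich tumors (median 660) and 734 to 1301 CPM in stroma-poor tumors (median 1039), or -0.67 ± 0.20. Tpi1, triose phosphate isomerase, had 162 to 374 CPM in stroma-rich tumors (median 318) and 415 to 828 CPM in stroma-poor tumors (median 486), or -0.74 ± 0.22. Eno1, Ldha and Tpi1 have processed copies in the genome, and how such reads were assigned is not given in the sources used here.

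Other members had overlapping groups. Pgk1, phosphoglycerate kinase, had 61.8 to 181 CPM in stroma-rich tumors (median 131) and 151 to 260 CPM in stroma-poor tumors (median 215), and Egln3, an oxygen-sensing prolyl hydroxylase, had 20.9 to 132 CPM in stroma-rich tumors (median 75.3) and 102 to 217 CPM in stroma-poor tumors (median 136). Car9, a carbonic anhydrase widely used as a hypoxia marker, was the exception at 0.64 ± 0.64 (-0.55 without WT tumor 2), with 48.6 to 156 CPM in stroma-rich tumors (median 105) and 5.83 to 264 CPM in stroma-poor tumors (median 51.9). Levels of single genes are CPM and not per length, so they are not compared between genes.

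Hypoxia-inducible factor binds the core letters ACGTG, and 3 promoters show how these genes differ in it. Each is the 250 bases before the gene's start from RefSeq (GRCm38.p6), with ACGTG on either strand in capitals (a CACGTG holds 1 match on each strand, which overlap).
Ldha, chr7:46845554-46845803, plus strand, 5 matches: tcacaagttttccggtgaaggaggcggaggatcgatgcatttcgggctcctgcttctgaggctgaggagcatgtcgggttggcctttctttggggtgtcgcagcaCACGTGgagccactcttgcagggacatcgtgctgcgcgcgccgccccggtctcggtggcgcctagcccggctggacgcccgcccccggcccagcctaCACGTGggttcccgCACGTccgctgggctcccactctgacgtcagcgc
Pgk1, chrX:106186850-106187099, plus strand, 2 matches: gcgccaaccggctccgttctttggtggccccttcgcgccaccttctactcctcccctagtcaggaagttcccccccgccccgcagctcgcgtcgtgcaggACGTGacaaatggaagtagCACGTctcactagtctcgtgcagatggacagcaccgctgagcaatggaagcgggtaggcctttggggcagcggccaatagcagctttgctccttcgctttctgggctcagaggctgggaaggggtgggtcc
Egln3, chr12:54203875-54204124, minus strand, 1 match: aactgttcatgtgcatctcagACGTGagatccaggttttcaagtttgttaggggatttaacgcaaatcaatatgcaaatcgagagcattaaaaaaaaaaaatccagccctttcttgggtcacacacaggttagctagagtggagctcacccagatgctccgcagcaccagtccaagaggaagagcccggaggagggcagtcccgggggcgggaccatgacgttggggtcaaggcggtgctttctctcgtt
No window of Eno1, Pfkl, Tpi1, Gpi1, Pdk1 or Pfkp held a match, nor did a further window each of Ldha, Pkm, Aldoa and Vegfa. A match in at least 1 promoter was held by 11 (64.71%) of the 17 list genes that RefSeq gives a promoter, against 4998 of 27025 genes (18.49%) and 5444 of 32851 promoters (16.57%). A match is a description of letters in this window and says nothing on binding.

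**Figure D4:**
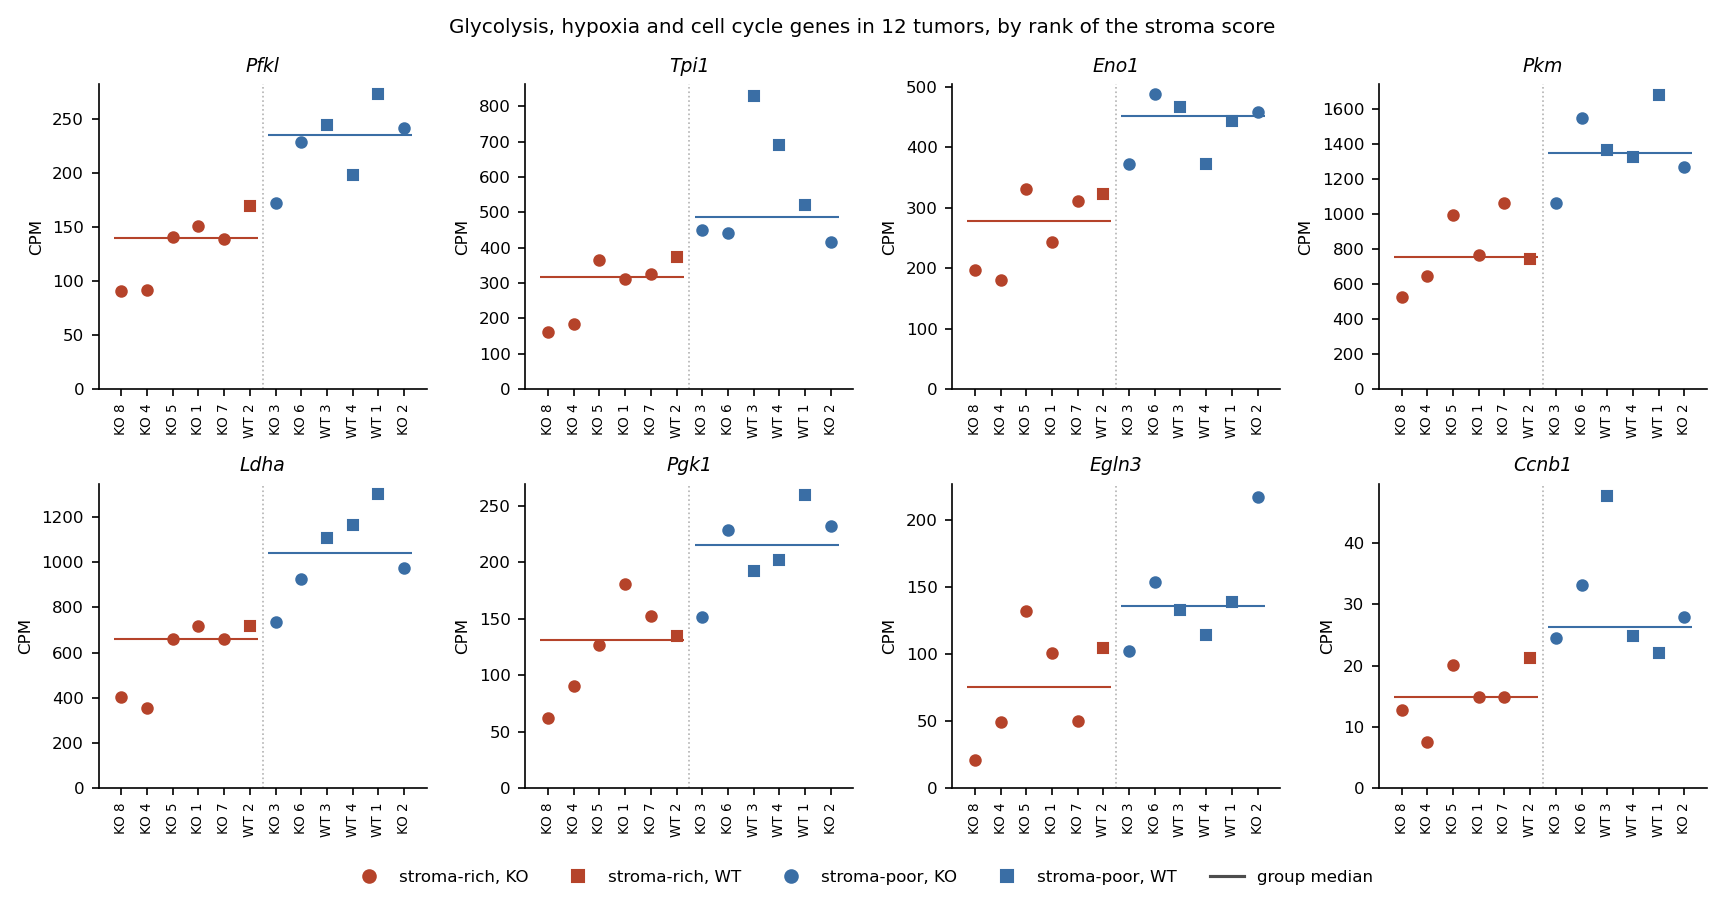
CPM (linear axis, TMM-scaled) of 7 glycolysis and hypoxia genes and Ccnb1 in the 12 tumors in rank order, stroma-rich tumors left of the dotted line; circles are KO, squares WT, lines are group medians. All but Pgk1 and Egln3 lack overlap between groups, as in Ldha with at most 718 CPM in stroma-rich tumors against at least 734 CPM in stroma-poor tumors.

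Lists with medians near 0 were interferon response (0.12 over 12 genes), immediate early genes (-0.03 over 11) and published miR-21 targets (-0.06 over 17). Each changed sign in at least 4 of 32 fits. Other medians were 1.56 over the 6 of 8 tested genes of dendritic cells (Ccr7 at 1.31 to 40.3 CPM in stroma-rich tumors and 0.541 to 3.83 CPM in stroma-poor tumors), 0.77 over 7 genes of Schwann cells, 0.40 over 11 genes of the classical gastric program, 0.12 over 10 growth factor genes (PDGF, FGF and IGF), -0.05 over 7 microRNA host transcripts and 0.57 over the 2 of 7 tested hepatocyte genes. Leaving out 1 tumor at a time, the classical gastric median ran from -0.38 to 0.55, that of microRNA hosts from -0.46 to 0.51, of hepatocyte genes from -0.92 to 1.06 and of skeletal muscle genes from -0.97 to 0.95, so none of these has a firm sign.

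**Figure D5:**
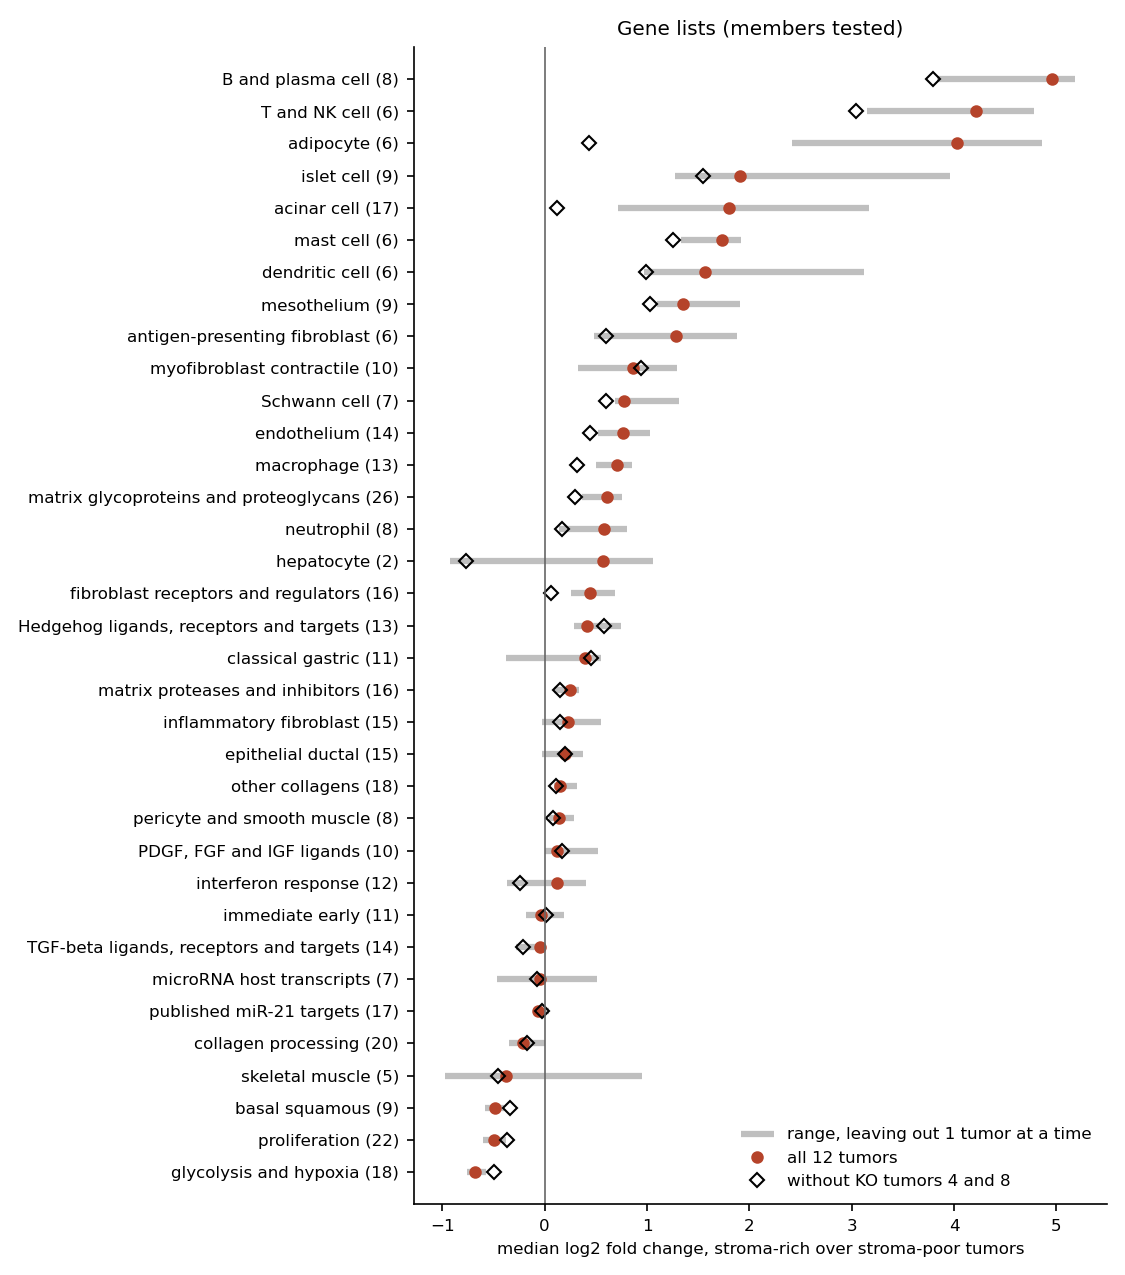
Median log2 fold change, stroma-rich over stroma-poor tumors at equal genotype, of each of 35 gene lists (members tested in brackets). Filled circles are all 12 tumors, bars the range leaving out 1 tumor at a time, diamonds the fit without KO tumors 4 and 8, in which the acinar and adipocyte medians come near 0 (0.12 and 0.44) and glycolysis stays at -0.50.

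The lines give a readout that the rank did not use, being cancer cells passaged until fibroblasts were lost. Of the 112 genes with all stroma-rich tumors above, 46 (41.1%) were under 1 CPM in every line, and of the 110 with all below, 3 (2.73%) were. Among all genes tested the share was 20.4%. Of the 978 genes that were higher with the score 591 (60.4%) were under 1 CPM in every line, and of the 242 that were lower 9 (3.72%). Conversely, 85.5% of the 110 and 92.1% of the 242 were at 1 CPM or more in every line, against 63.1% of all genes. The median level over the lines was 0.363 CPM for the 112 genes, 62.2 CPM for the 110 and 13.8 CPM for all genes. The sets differed in tumor level too, with a median of 6.86 CPM for the 112 genes and 50.21 CPM for the 110. In tumors the 978 genes had a median of 9.59 CPM, the 242 had 71.63 CPM and all genes 20.2 CPM. The shares were not adjusted for tumor level, and its part in them was not tested. No test was made between tumors and lines, and 5 lines share an animal with a tumor.

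Genotype at equal stroma group was tested in the same model, since genotype was not used to rank. MicroRNA-21 lowers messenger RNAs that carry a match to its seed. Only the 3′ UTRs of Acat1, Cdip1 and Reck were searched for a match. Taf7 was not searched, and the share of all 3′ UTRs with a match was not counted. The mature RNA (RefSeq, GRCm38.p6, chr11:86584120-86584141, minus strand, seed bases 2 to 8 in capitals) is shown with a site in the 3′ UTR of these 3 genes (mm10, 30 bases, seed match and the A after it in capitals).
miR-21a-5p: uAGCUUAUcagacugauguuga
Acat1, chr9:53582450-53582479, minus strand, 77 bases after the stop codon: ttatattcagcATAAGCTAtttcatttttt
Cdip1, chr16:4768256-4768285, minus strand, 264 bases after the stop codon: caattcagaagATAAGCTAgagaggctctt
Reck, chr4:43944396-43944425, plus strand, 1042 bases after the stop codon: tacagtttgaaATAAGCTAttaatgtaata
Each window reads ATAAGCTA, the complement of the seed with a final A.

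Of 17183 genes 2 (0.0116%) had an adjusted p under 0.05 by edgeR, both higher in KO tumors, while 1060 higher and 857 lower had an unadjusted p under 0.05. Acat1, a mitochondrial acetyl-CoA acetyltransferase (chr9:53580522-53610382), averaged 108.9 ± 11.01 CPM in KO tumors (SD, n = 8) and 41.3 ± 5.74 CPM in WT tumors (SD, n = 4). Its log2 fold change, KO over WT, was 1.40 ± 0.14 (edgeR, adjusted p = 0.00573), with each of 8 KO tumors above each WT tumor, and 27 of 31 alternatives kept it under 0.05 (adjusted p 3.95e-19 to 0.195). Taf7, one of the TFIID proteins that start transcription, averaged 19.95 ± 1.81 CPM in KO tumors and 7.63 ± 0.942 CPM in WT tumors, or 1.36 ± 0.16 (edgeR, adjusted p = 0.0137, from 2.55e-20 to 0.195 over 31 alternatives, 21 of them under 0.05). Without WT tumor 2, the WT tumor of the stroma-rich group, 0 genes passed by edgeR, with 1031 higher and 946 lower at an unadjusted p under 0.05. DESeq2 called 322 genes and limma-voom 2 on all 12 tumors.

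Acat1 overlapped between stroma groups and was at 43.0 to 118 CPM in stroma-rich tumors and 34.0 to 121 CPM in stroma-poor tumors, with a stroma log2 fold change that rounds to 0. Cdip1, a p53-induced pro-apoptotic gene, averaged 76.7 ± 6.34 CPM in KO tumors and 45.3 ± 4.74 CPM in WT tumors without passing (0.77 ± 0.12, edgeR adjusted p = 0.182, from 3.42e-07 to 0.369 over 31 alternatives). Tprgl and the predicted gene Gm7173, also among the 5 with the smallest p, had log2 fold changes of 0.81 ± 0.13 and 3.29 ± 0.53 (edgeR, adjusted p = 0.187 and 0.182). In the lines Acat1 had 114 to 145 CPM in KO lines and 75.5 to 113 CPM in WT lines, and Cdip1 73.4 to 85.2 CPM in KO lines and 24.2 to 42.0 CPM in WT lines.

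The values of Reck went with stroma group and genotype alike. This membrane-anchored inhibitor of metalloproteases and published miR-21 target had 4.27 to 31.1 CPM in stroma-rich tumors (median 13.8) and 1.15 to 10.4 CPM in stroma-poor tumors (median 2.67), a stroma log2 fold change of 1.31 ± 0.39. By genotype it averaged 14.9 ± 9.07 CPM in KO tumors and 2.54 ± 1.29 CPM in WT tumors, or 2.01 ± 0.44 at equal stroma group (edgeR, adjusted p = 0.276, from 6.81e-04 to 0.725 over 31 alternatives, 2 of them under 0.05), and 2.55 with no stroma term (edgeR, adjusted p = 0.121). KO tumor 2, the KO tumor lowest in stroma, had 2.82 CPM, within the WT range of 1.15 to 4.27 CPM. In the lines Reck had 0 to 0.880 CPM in KO lines and 0 to 0.613 CPM in WT lines. Pdcd4, Timp3, Spry1 and Spry2, other published targets, had log2 fold changes of 0.92, 0.63, 0.57 and 0.10, KO over WT, with edgeR adjusted p of 0.392, 0.407, 0.472 and 0.923.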

How the data were processed

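The 22 libraries were stranded, poly(A)-selected RNA from whole tumors and cell lines, read as 75-base single ends on a NextSeq 500, per the labels' protocols. The deposited raw counts per gene were made by the authors with STAR on mm10 after bcl2fastq 1.9.0 and Trim Galore, per the submitters' processing notes. The annotation and strand setting of counting are not given in the sources used here. IDs were paired with symbols through GENCODE vM21 (53237 of 53342 genes, the other 105 holding 0.0091% of counts). No pair of tumors was identical (smallest chi-square per degree of freedom 49.77).

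The members, lists and tests were chosen with earlier results of these data known. Named genes were, per list, up to 4 with the smallest stroma p, for genotype the 5 with the smallest p and 8 fixed genes, and the ranking genes. Genes past the threshold with a mean of at least 1 CPM were part of the rule, but none passed between stroma groups. Other genes in the text were chosen after their values were seen, also where this is not repeated beside them.

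Counts were fitted with edgeR 4.0.16 (quasi-likelihood, robust, TMM factors, filterByExpr) in R 4.3.3, with stroma group and genotype as terms and Benjamini-Hochberg adjustment over all genes tested at 0.05. DESeq2 1.42.0 and limma 3.58.1 (voom), other scalings and filters, other scores and cuts, covariates and leaving out tumors were alternatives. The fit was tested on simulated data. The score was compared between genotypes by an exact permutation test over all relabellings, in Python 3.11.15 with numpy 2.4.6. Replicates are tumors that the labels list separately. Counting floors cover counting error only.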

Additional observations from a re-analysis of the deposited data

Results flagged for a closer look

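Within groups of 4, 6 or 8 tumors, a tumor was picked out where its gap to the nearest of the others was large for the range of its group (Dixon's 95% value). Of 202 groups tested 12 had such a tumor, and chance gives about 1 in 20. KO tumor 2 had the lowest stroma score of the KO tumors at 7.46. In the stroma-rich group, as mean log2(CPM + 1) over a list, WT tumor 2 was lowest in microRNA host transcripts (3.98) and in published miR-21 targets (6.29), KO tumor 4 was highest in neutrophil genes (4.39), and KO tumor 5 was highest in hepatocyte genes (2.22). In the stroma-poor group WT tumor 3 was highest in skeletal muscle genes (6.66) and KO tumor 3 in islet genes (3.29).

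Among single genes in the stroma-rich group, KO tumor 4 had the lowest Smad7 level (31 CPM) and the highest Lyve1 level (320.0 CPM). In the stroma-poor group WT tumor 4 had the highest Myh11 level (204 CPM), KO tumor 3 the highest Ins2 level (25 CPM) and KO tumor 6 the lowest level of Ighm, the IgM heavy chain (2.16 CPM). KO tumor 4 was also among the 2 highest in acinar genes, and KO tumor 3 the highest of its group in Fmod and Prelp.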

How the results depend on the processing

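No paired analysis was possible because the groups compared are different animals and the labels number no replicates. The 5 tumors whose animal also gave a line pair a tumor with a line, between which no test was made. Between stroma groups edgeR called 0 genes leaving out any 1 tumor and in the other edgeR fits of both groups, with DESeq2 at 686 and the score as a number at 1220. The genes that follow the score numbered 300 (without KO tumor 8) to 1624 (without WT tumor 3), 9 without KO tumors 4 and 8, 2565 by DESeq2, 12 with an acinar term and 43 on the 3 collagens. The share of the higher ones under 1 CPM in every line was 60.4%, from 56.9% to 62.6% leaving out 1 tumor, 71.4% without KO tumors 4 and 8, 56.3% by DESeq2, 44.4% with an acinar term, 40.0% on the 3 collagens and 56.9% on Dcn and Lum. Genotype at equal stroma gave 0 (without WT tumor 2) to 8 (without KO tumor 2) genes leaving out 1 tumor, 322 by DESeq2, 3 with no low-count filter, 3 with the score as a number, 5 with the 4 highest against the 4 lowest, 0 with 5 against 5 and 0 without KO tumors 4 and 8, the cause not tested. Beside those counts of 0, 1033 and 952 genes higher in KO and 1010 and 942 lower had an unadjusted p under 0.05. In the 4 against 4 fit the low side has 1 KO tumor, KO tumor 2, and the high side no WT tumor. The score difference between genotypes was, leaving out 1 tumor, 0.45 (without WT tumor 1) to 0.95 (without KO tumor 2, exact permutation p = 0.0242), and 0.41 with the score without Dcn. No other setting took its p under 0.05. Spry2 (0.10) lay between -0.24 (without KO tumor 6) and 0.41 (without WT tumor 1), and was -0.065 with the score without Dcn, -0.43 with 4 against 4, -0.20 with an epithelial term and -0.092 with no stroma term. Of 1120 alternative list medians 79 moved by more than their spread, and of the alternative values of 144 single genes between stroma groups 233 moved and 4370 did not. Common dispersion gave a coefficient of variation of 0.438 between tumors.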
